A study of Mus musculus with 8 samples.

Results

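The genes described here make fatty acids, desaturate them, or control these steps and sterol synthesis: Acaca, Acacb, Fasn, Scd1, Scd2, Scd4, Srebf1 and Insig1. They were chosen by gene symbol, with earlier results of these data known. The gene table holds 8 rows for them among 23100, all 8 tested by the authors. The isoform table holds 12 rows, of which 11 were tested. RNA came from cardiac ventricles of 4 DKO and 4 Ctrl mice aged 4.5 months. All animals carried Sox5fl/fl and Sox6fl/fl alleles, DKO animals were also positive for aMHC-Cre, and Ctrl animals were negative for it. The aMHC promoter is active in cardiomyocytes, so the remaining cells of the ventricle are expected to keep both Sox genes, which was not measured here. Without a Cre-only group the effect of Cre and that of the deletion cannot be told apart. Pressure overload appears in the series title, while no surgery is given in the labels of these animals.

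Levels are the authors' FPKM values (fragments relative to transcript length and library size), 1 per genotype and pooled over its 4 animals, so no value below carries an error between animals. A gene counts as called where Cuffdiff, run by the authors, gave a q no larger than 0.05. Sox6 was called lower, at 1.69 FPKM in DKO, against 3.39 in Ctrl. Sox5 was at 0.497 FPKM in DKO, against 0.369 in Ctrl, and was not tested, so it does not check the label. Cardiomyocyte markers were abundant in both genotypes, with 9 of 9 tested, summing to 60316 FPKM in DKO, against 69865 in Ctrl. In such bulk samples, fewer cells of a type and less RNA per cell cannot be told apart.

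Fatty acid synthesis starts from cytosolic acetyl-CoA, which acetyl-CoA carboxylase turns into malonyl-CoA and fatty acid synthase extends to palmitate. Stearoyl-CoA desaturases then place a double bond in the saturated chain. SREBP transcription factors raise the genes of these steps and of sterol synthesis, while Insig proteins hold the SREBP escort protein Scap in the endoplasmic reticulum when sterols are plentiful. The heart takes up most of its fatty acids from blood and burns them, and there malonyl-CoA is known mainly as the inhibitor of fatty acid entry into mitochondria.

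Among the 8 genes, Fasn, Scd4 and Insig1 rose in DKO ventricles, and the Scd2 transcript rose as well once it was read apart from a microRNA joined to its gene row. Scd1, Acaca, Acacb and Srebf1 did not pass the test. Of the 8 genes, 3 were thus called higher at the gene level, where 4.30% of the 12133 tested genes were called higher and 7.36% in either direction. No member was called lower, against 3.06% of all tested genes, and at an unadjusted p under 0.05 there was 1 lower member, Acacb. Of their 11 tested isoforms, 4 were called higher, against 1.90% of 18490 tested isoforms and 3.02% called in either direction. None was called lower, against 1.12%, and 0 of them were lower at an unadjusted p under 0.05. Start site groups, which sum isoforms that share a start, gave 4 higher and 0 lower members, where 2.95% of all tested groups were called higher, 1.99% lower and 4.94% either way. Coding sequences also gave 4 and 0, where 2.98% were called higher, 1.66% lower and 4.64% either way. Fasn, Scd4, Insig1 and Scd2 have 1 isoform each. Their values and p-values are therefore the same among isoforms, start site groups and coding sequences, and only the q-values differ. Acacb had too few data for a test among coding sequences. With Scd2 read as its transcript, the median log2 ratio of DKO over Ctrl over the 8 genes was 0.28, with 6 of 8 above 0. Over all tested genes the median was -0.0042, and 48.9% of the ratios were above 0. Because the 8 genes were chosen with earlier results of these data known, these counts and medians describe them and do not test them as a set.

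**Figure D1:**
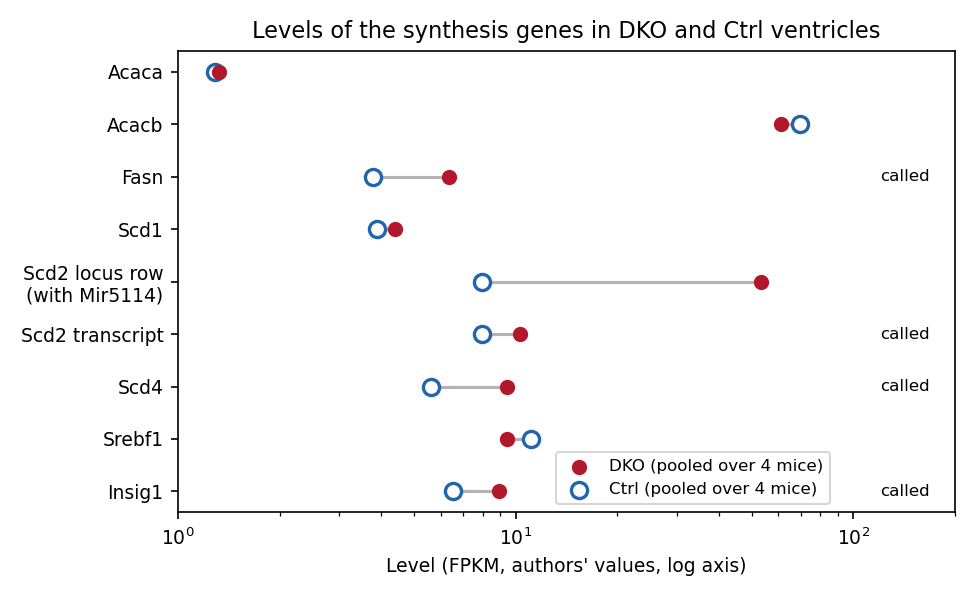
Level of each synthesis gene in FPKM on a log axis, with DKO as filled red points and Ctrl as open blue points, each pooled over 4 mice. Acacb is highest in both genotypes, next to the joined Scd2 row in DKO, and that row's gap (53.4 FPKM in DKO against 7.97 in Ctrl) is far wider than its transcript's (10.3 FPKM in DKO against 7.97 in Ctrl).

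Fasn encodes fatty acid synthase, the enzyme that builds palmitate. It was at 6.35 FPKM in DKO, against 3.77 in Ctrl, 1.69-fold higher, with a log2 ratio of 0.75 and q = 0.00158 in the authors' deposited table. Of all tested genes, 98.1% had a lower log2 ratio, and 23.5% had a lower Ctrl level, which makes Fasn a low-level transcript with one of the larger rises. Its p of 5e-05 is the smallest in the authors' deposited table and is shared by 385 tested genes, so it gives no rank among them. In mm9 the Fasn row spans chromosome 11 from 120667272 to 120685861, with 1 isoform of 9938 bases.

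Insig1 encodes an endoplasmic reticulum protein that retains Scap and SREBP, and it is itself a known SREBP target. It was at 8.95 FPKM in DKO, against 6.54 in Ctrl, 1.37-fold higher, with a log2 ratio of 0.45 and q = 0.00841 in the authors' deposited table. Its row lies on chromosome 5 from 28397952 to 28405202 and has 1 isoform of 2648 bases. Insig2, a second gene for such a retention protein, was the more abundant in both genotypes, at 40.1 FPKM in DKO, against 41.9 in Ctrl. It was not called (q = 0.890 in the authors' deposited table). The level of Insig2 over that of Insig1 was 4.48 in DKO and 6.40 in Ctrl, a difference that was not tested.

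Scd4, the stearoyl-CoA desaturase known as the cardiac one in mice, was at 9.46 FPKM in DKO, against 5.61 in Ctrl. It was 1.68-fold higher, with a log2 ratio of 0.75 and q = 0.00158 in the authors' deposited table. That fold is close to that of Fasn, and 98.1% of tested genes had a lower log2 ratio. Scd4 spans chromosome 19 from 44407816 to 44421233 in mm9, with 1 isoform of 3072 bases.

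The 250 bases before the RefSeq start of the 3 genes called higher in the gene table are shown because these genes moved the same way. They come from RefSeq, build GRCm38.p6, and capitals mark matches on either strand to 5 motifs chosen after the calls were known. These are the E-box CACGTG, the sterol regulatory element consensus TCACNCCAC, the NF-Y box CCAAT, the GC box GGGCGG and AACAAT, which SoxD proteins bind. Fasn is read from chr11:120824548-120824797 on the minus strand, Insig1 from chr5:28071162-28071411 on the plus strand, and Scd4 from chr19:44333076-44333325 on the plus strand.
Fasn: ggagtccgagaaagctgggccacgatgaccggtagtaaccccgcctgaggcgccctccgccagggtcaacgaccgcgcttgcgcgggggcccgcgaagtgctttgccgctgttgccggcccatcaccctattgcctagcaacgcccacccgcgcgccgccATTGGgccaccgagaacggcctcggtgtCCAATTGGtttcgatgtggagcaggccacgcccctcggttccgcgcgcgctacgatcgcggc
Insig1: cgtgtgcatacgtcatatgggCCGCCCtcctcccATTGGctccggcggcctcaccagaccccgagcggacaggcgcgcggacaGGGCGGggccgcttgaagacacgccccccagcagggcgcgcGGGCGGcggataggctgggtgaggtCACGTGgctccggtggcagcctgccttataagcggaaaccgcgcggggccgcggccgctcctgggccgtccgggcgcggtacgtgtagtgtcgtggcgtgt
Scd4: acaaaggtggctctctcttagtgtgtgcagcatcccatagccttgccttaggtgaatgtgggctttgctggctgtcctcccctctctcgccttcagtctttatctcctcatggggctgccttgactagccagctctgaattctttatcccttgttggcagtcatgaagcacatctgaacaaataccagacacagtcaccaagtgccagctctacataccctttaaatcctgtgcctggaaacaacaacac
The Fasn window held 3 matches, all to the NF-Y box, and the 2 nearest to the start overlap on opposite strands. The Insig1 window held 5, namely 1 E-box, 1 NF-Y box and 3 GC boxes. The Scd4 window held 0. Uncalled genes had matches as well. The Acacb window held 1 NF-Y box, while the Acaca window held no match. The 3 Srebf1 windows, in order of position, held 1 NF-Y box with 2 GC boxes, then 2 GC boxes, then 1 NF-Y box. Of 32851 RefSeq windows of this length, 33.8% held the NF-Y box, 32.7% the GC box, 6.02% the E-box, 9.42% the SoxD letters and 1.05% the sterol element consensus. Neither of the last 2 motifs was found in the windows of Fasn, Insig1, Scd4, Acaca, Acacb or the 3 listed Srebf1 starts. A match describes letters in a window, and a missing one says only that these letters are not in it.

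Scd2, a desaturase best known from brain, gave different answers in the gene and isoform tables. Its gene row joins Scd2 with the microRNA gene Mir5114 and was at 53.4 FPKM in DKO, against 7.97 in Ctrl. That 6.70-fold difference was not called (log2 ratio of 2.74, q = 0.858 in the authors' deposited table). The Mir5114 row of 61 bases was at 43.1 FPKM in DKO and listed at 0 in Ctrl, and Cuffdiff gave it no test for low data. It made up 80.7% of the DKO total of the joined row. FPKM divides by length, so few fragments give a feature this short a large value.

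The Scd2 transcript of 5451 bases was at 10.3 FPKM in DKO, against 7.97 in Ctrl. It was called 29.5% higher, with a log2 ratio of 0.37 and q = 0.0183 among isoforms in the authors' deposited table. The same row passed among transcription start site groups (q of 0.0129) and among coding sequences (q of 0.0134) in the authors' deposited tables. The rise of Scd2 was thus called at each level that keeps the microRNA apart. In the GENCODE annotation of GRCm38, the Mir5114 hairpin lies on chromosome 19 from 44303171 to 44303231, on the plus strand, inside exon 6 of 6 of Scd2. Of its 61 bases, 30 fall in the coding sequence with its stop codon and 31 in the untranslated part. The mature form is shown because its letters are also the sense letters of the Scd2 coding sequence, at chr19:44303171-44303192 (RefSeq, GRCm38.p6), with the seed, bases 2 to 8, in capitals.
miR-5114: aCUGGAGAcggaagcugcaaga
A fragment from these bases could come from either transcript, and the sources used here do not give how Cuffdiff divided such fragments.

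**Figure D2:**
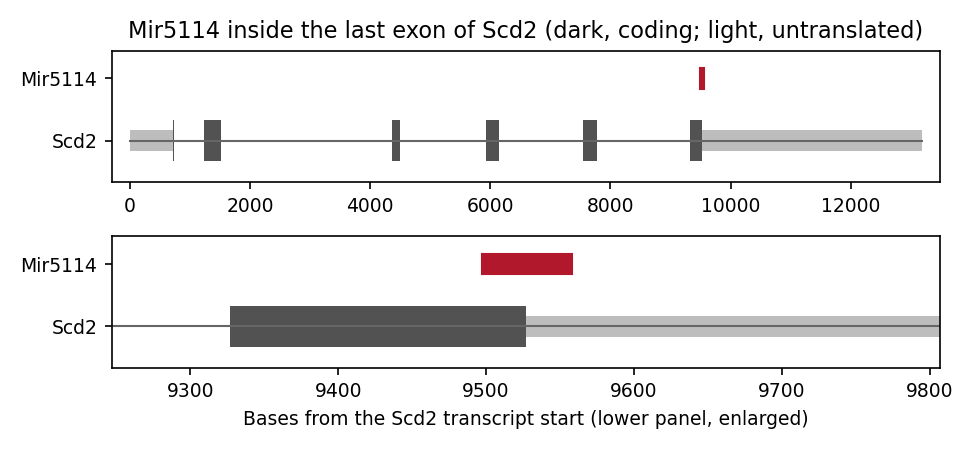
Map of the Scd2 transcript and the Mir5114 hairpin, in bases from the Scd2 start, with coding parts dark and untranslated parts light. The 61-base hairpin sits in exon 6, across the end of the coding sequence.

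Scd1, the desaturase of liver and fat, was at 4.38 FPKM in DKO, against 3.87 in Ctrl. That log2 ratio of 0.18 was not called (q = 0.538 in the authors' deposited table). Scd3, also of this cluster, was not tested, at 0.202 FPKM in DKO, against 0.277 in Ctrl. Summed over the Scd1, Scd2 and Scd4 transcripts, desaturase RNA was at 24.2 FPKM in DKO, against 17.5 in Ctrl, a ratio of 1.38 that was not tested. Scd4 made up 39.1% of that sum in DKO and 32.2% in Ctrl. Scd2 made up 42.7% in DKO and 45.7% in Ctrl, and Scd1 18.1% in DKO and 22.2% in Ctrl. The order of the 3 transcripts was the same in both genotypes, and the shift in their shares was not tested.

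Acaca and Acacb encode the acetyl-CoA carboxylases, the cytosolic ACC1 of lipid synthesis and the ACC2 that sits at mitochondria. Acacb was the most abundant of the 8 genes, at 61.2 FPKM in DKO, against 69.6 in Ctrl, with a log2 ratio of -0.19. Its p was 0.0488 and its q 0.298 in the authors' deposited table, so it was not called, and its ratio became 0.024 when the median of the cardiomyocyte markers was set to 0. Acaca was the least abundant, at 1.32 FPKM in DKO, against 1.29 in Ctrl, for a log2 ratio of 0.04 and q = 0.962 in the authors' deposited table. Acacb exceeded Acaca 46.2 times in DKO and 54.0 times in Ctrl. The carboxylase RNA of both genes summed to 62.5 FPKM in DKO, against 70.9 in Ctrl. Neither carboxylase was called in any deposited table. Among coding sequences Acacb is held only by its 8485-base isoform, which had too few data for a test, so no call was possible there.

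The Acacb total was spread over 4 isoforms from 4 start site groups. An isoform of 8540 bases was at 47.2 FPKM in DKO, against 53.3 in Ctrl, which was 77.1% of the isoform sum in DKO and 76.5% in Ctrl. One of 5684 bases was at 13.0 FPKM in DKO, against 14.4 in Ctrl. Both are marked by the authors' files as variants that share a splice junction with the RefSeq transcript without matching it. The isoform that matches it, of 8485 bases, was at 0.957 FPKM in DKO, against 0.326 in Ctrl and had too few data for a test. The one of 7959 bases was at 4.10e-04 FPKM in DKO, against 1.66 in Ctrl, with q = 0.811 in the authors' deposited table. Overlapping isoforms are divided by a model of the reads, so these 2 minor values are less certain than the gene total. The 2 abundant isoforms had log2 ratios of -0.17 and -0.14, near that of the gene.

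Srebf1 encodes the SREBP-1 transcription factors, whose 1a and 1c forms arise from different starts. Its total was at 9.44 FPKM in DKO, against 11.1 in Ctrl, with a log2 ratio of -0.24 and q = 0.495 in the authors' deposited table. The total was thus not called, and its ratio was -0.028 when the median of the cardiomyocyte markers was set to 0. Its 2 isoforms, each with a start of its own, had ratios of opposite sign. The one that matches the RefSeq transcript (4299 bases) was at 6.75 FPKM in DKO, against 9.13 in Ctrl, with a log2 ratio of -0.44 and q = 0.704 in the authors' deposited table. The variant of 4170 bases was at 2.69 FPKM in DKO, against 2.00 in Ctrl, with a log2 ratio of 0.43 and q = 0.938 in the authors' deposited table. The variant made up 28.5% of the Srebf1 sum in DKO and 18.0% in Ctrl, a difference that was not tested. The sources used here do not give which of them encodes the 1a or the 1c form, and the locus listed for Srebf1 also covers Rai1. Srebf2, the gene of the SREBP form known for sterol synthesis and named after its values were seen, was at 7.86 FPKM in DKO, against 7.16 in Ctrl. It was not called (q = 0.658 in the authors' deposited table).

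**Figure D3:**
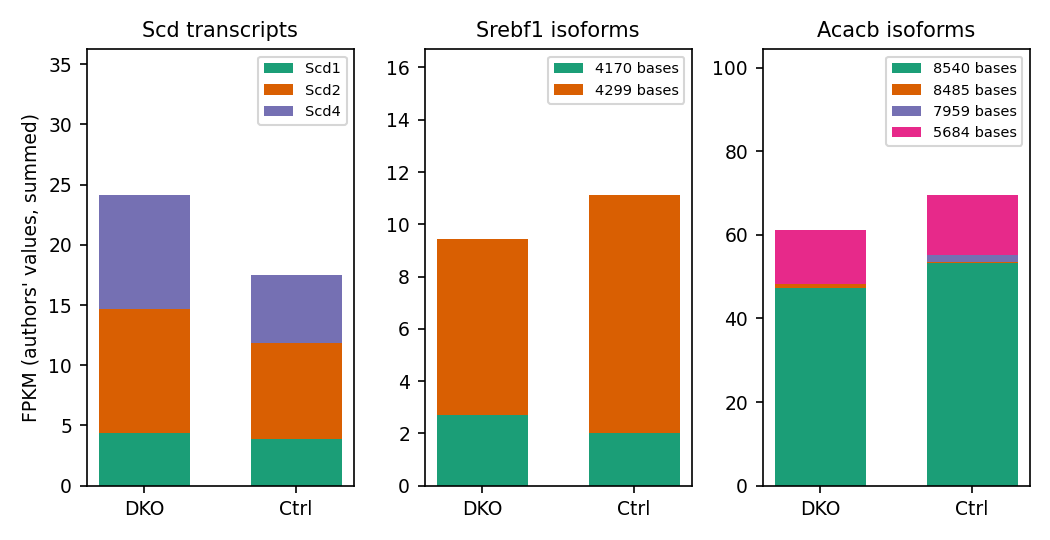
Stacked FPKM of the Scd1, Scd2 and Scd4 transcripts, the Srebf1 isoforms and the Acacb isoforms, DKO left of Ctrl in each panel. The Scd stack is taller in DKO (24.2 against 17.5 FPKM), while the Srebf1 and Acacb stacks, neither of them called, are shorter.

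Ordered by level, with Scd2 as its transcript, DKO ventricles had Acacb, Scd2, Scd4, Srebf1, Insig1, Fasn, Scd1 and Acaca. Ctrl ventricles had Acacb, Srebf1, Scd2, Insig1, Scd4, Scd1, Fasn and Acaca. Acacb came first and Acaca last in both. With 1 pooled value per genotype, neighbours in these orders cannot be said to differ. Scd4 and Srebf1 in DKO, at 9.46 and 9.44 FPKM, are one such pair, and Scd1 and Fasn in Ctrl, at 3.87 and 3.77 FPKM, are another.

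**Figure D4:**
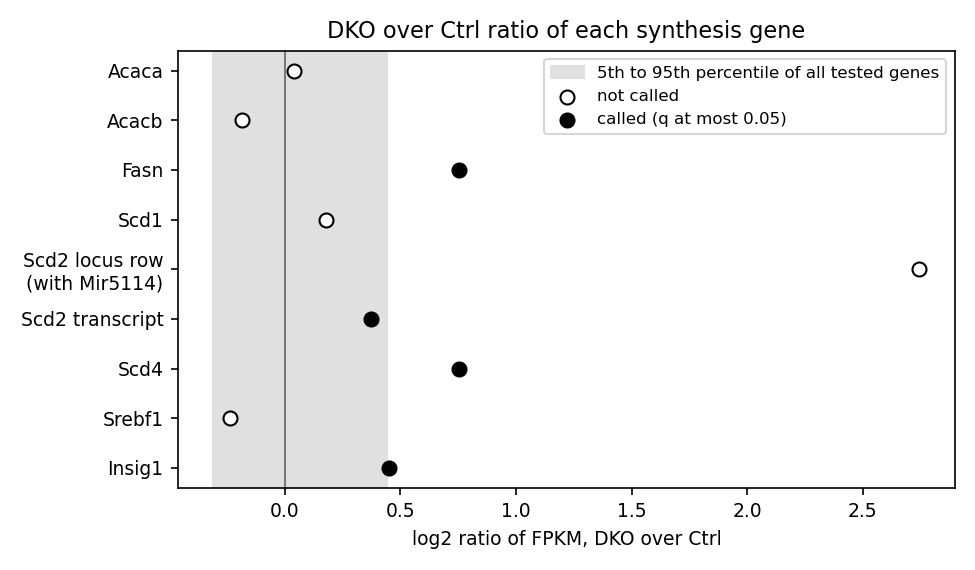
Log2 ratio of FPKM, DKO over Ctrl, for each synthesis gene, with called rows filled and the 5th to 95th percentile of all tested genes (-0.31 to 0.44) in grey. Fasn, Scd4 and Insig1 lie to the right of that range, and the Scd2 transcript lies inside it. The joined Scd2 row with Mir5114, not called, lies farthest to the right at 2.74.

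The enzymes and carriers around fatty acid synthesis held 1 higher and 1 lower gene among 13 tested, with 3 at an unadjusted p under 0.05. Against 4.30% of all tested genes called higher and 3.06% called lower, a single call in a list of this size is near the background. Fads3, of the fatty acid desaturase family, rose to 47.7 FPKM in DKO, against 36.9 in Ctrl (1.29-fold, q = 0.0120 in the authors' deposited table). Mlycd encodes malonyl-CoA decarboxylase, which breaks down the product of the carboxylases, and it fell to 62.3 FPKM in DKO, against 77.0 in Ctrl. That is a log2 ratio of -0.30 with q = 0.0190 in the authors' deposited table. The list's median log2 ratio was -0.015. Abundant members that were not called were Mid1ip1, which aids carboxylase assembly (81.6 FPKM in DKO, against 89.4 in Ctrl), Thrsp (42.9 in DKO and 48.3 in Ctrl), the malic enzyme gene Me1 (41.4 in DKO and 43.4 in Ctrl) and Acss2 (21.3 in DKO and 21.4 in Ctrl).

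Cholesterol synthesis enzymes held 1 higher gene and none lower among 16 tested, again near the background of 4.30% higher and 3.06% lower. Hsd17b7, a reductase of the later steps, rose to 8.14 FPKM in DKO, against 4.27 in Ctrl, 1.91-fold with q = 0.00158 in the authors' deposited table. Its log2 ratio of 0.93 was above the 0.75 of Fasn, a difference that was not tested. The other gene with an unadjusted p under 0.05 was Cyp51, a demethylase of this pathway named after its values were seen, at 3.797 FPKM in DKO, against 4.79 in Ctrl (log2 ratio of -0.34, q = 0.0848 in the authors' deposited table). The list's median was 0.12, and 9 of 16 ratios were above 0, beside 48.9% over all tested genes. Uncalled members included the squalene synthase gene Fdft1 (13.7 FPKM in DKO, against 17.1 in Ctrl), Pmvk (10.5 in DKO and 12.0 in Ctrl), the row of Tm7sf2 (11.8 in DKO and 10.8 in Ctrl) and Sc5d (9.998 in DKO and 10.7 in Ctrl). Idi1 and Sqle were not tested, and the rows of Hmgcs1 used here lie on unplaced sequence and are listed at 0 in both genotypes.

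SREBP regulators and sterol transport genes held no higher gene and 1 lower gene among 16 tested, with 2 at an unadjusted p under 0.05, where 4.30% of all tested genes were called higher and 3.06% lower. The lower one was Mlxipl, which encodes the carbohydrate-responsive factor ChREBP, at 10.7 FPKM in DKO, against 13.3 in Ctrl (log2 ratio of -0.32, q = 0.0409 in the authors' deposited table). The list's median was 0.048. Besides Insig2, the abundant uncalled members were the liver X receptor gene Nr1h2 (30.8 FPKM in DKO, against 31.1 in Ctrl), Npc2, a lysosomal cholesterol carrier (24.7 in DKO and 21.6 in Ctrl), and the SREBP protease gene Mbtps1 (16.8 in DKO and 17.8 in Ctrl).

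Glycerolipid synthesis and lipid storage genes held no higher gene and 2 lower genes among 17 tested, where 4.30% of all tested genes were called higher and 3.06% lower. An unadjusted p under 0.05 was found for 4 of them, and the median log2 ratio was -0.058. Lpin1, a phosphatidate phosphatase, fell to 36.8 FPKM in DKO, against 45.3 in Ctrl (q = 0.0190 in the authors' deposited table). Plin5, a lipid droplet protein of oxidative tissues, fell to 66.1 FPKM in DKO, against 81.9 in Ctrl (q = 0.0241 in the authors' deposited table). The others with an unadjusted p under 0.05, neither of them called, had ratios of opposite sign and were named after their values were seen. Lpin2 was at 3.48 FPKM in DKO, against 2.69 in Ctrl (log2 ratio of 0.37, q = 0.0511 in the authors' deposited table). Agpat3 was at 59.3 FPKM in DKO, against 69.2 in Ctrl (log2 ratio of -0.22, q = 0.145 in the authors' deposited table). Not called were the lipase gene Pnpla2 (172 FPKM in DKO, against 179 in Ctrl), the acyltransferase gene Dgat2 (136 in DKO and 143 in Ctrl), Plin3 (124 in DKO and 122 in Ctrl) and Gpam (82.1 in DKO and 76.0 in Ctrl). AMP-activated protein kinase, which inhibits both carboxylases by phosphorylation, had 1 higher subunit gene and none lower among 7 tested, with 2 at an unadjusted p under 0.05, beside the same shares of 4.30% higher and 3.06% lower. It was Prkag3, at 2.86 FPKM in DKO, against 2.01 in Ctrl (1.42-fold, q = 0.0390 in the authors' deposited table). The more abundant subunit genes were not called, namely Prkag1 (86.7 FPKM in DKO, against 90.3 in Ctrl), Prkaa2 (41.7 in DKO and 43.3 in Ctrl), Prkab2 (31.1 in DKO and 27.7 in Ctrl) and Prkab1 (22.5 in DKO and 26.1 in Ctrl).

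**Figure D5:**
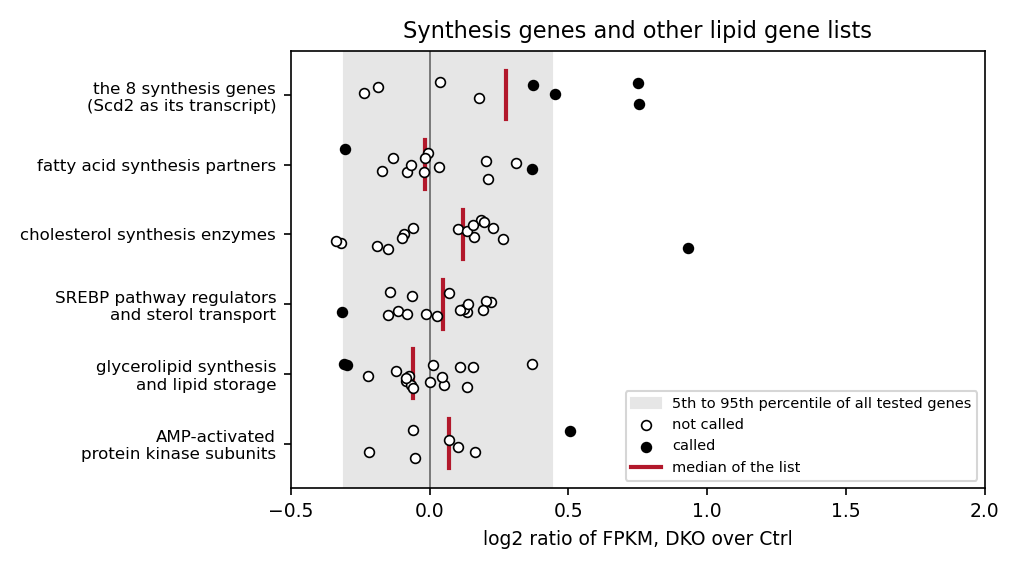
Log2 ratio of FPKM, DKO over Ctrl, for the 8 synthesis genes and the tested genes of 5 other lipid lists, with called genes filled and list medians in red. Most points of the 5 lists lie within the 5th to 95th percentile of all tested genes, and Hsd17b7 (0.93) lies farthest out.

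Markers of other cell types moved in part with the synthesis genes. Over all tested genes, 4.30% were called higher and 3.06% lower. Of 9 macrophage markers 8 were called higher, namely Cd68, Csf1r, Emr1, Lyz2, Mrc1, Itgam, C1qa and Mpeg1, and the list summed to 308 FPKM in DKO, against 189 in Ctrl. Of 7 fibroblast markers 5 were called higher, namely Col1a1, Col1a2, Col3a1, Dcn and Lum, and the list summed to 705 FPKM in DKO, against 549 in Ctrl. Their part in the higher Fasn, Scd2, Scd4 and Insig1 was not tested. Of 8 adipocyte markers, which summed to 38.2 FPKM in DKO and 35.3 in Ctrl, 7 were not tested by Cuffdiff. Among these, Adipoq was at 0.0394 FPKM in DKO, against 0.0240 in Ctrl, and Plin1 at 0.0237 in DKO and 0.0149 in Ctrl. Cfd was at 0.174 FPKM in DKO, against 0.0316 in Ctrl, Cidec at 0.0402 in DKO and 0.0352 in Ctrl, and Lep at 0.00654 in DKO and 0.0150 in Ctrl. Ucp1 was listed at 0 in both genotypes, and Retn at 0.0545 FPKM in DKO and at 0 in Ctrl. The remaining one, Cidea, was at 37.8 FPKM in DKO, against 35.2 in Ctrl, and was not called. The 7 endothelial markers (303 FPKM in DKO, against 322 in Ctrl) and the 9 cardiomyocyte markers held no called gene, with 1 and 3 of them at an unadjusted p under 0.05. Schwann cell markers held none among 3 tested, and none at an unadjusted p under 0.05, at a sum of 7.83 FPKM in DKO, against 7.37 in Ctrl over the 5 listed. In lists of this size, the absence of a call is near the background shares. The log2 ratios of the 9 cardiomyocyte markers were all below 0, from -0.31 to -0.091.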

How the data were processed

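Per the submitters' processing notes, reads were aligned with TopHat2 2.0.9 to mm9 and compared with Cufflinks 2.1.1 and Cuffdiff 2.1.1. The sources used here do not give settings or annotation. There are 5 tables, for genes, a subset of genes, coding sequences, isoforms and start site groups, with 1 FPKM value per genotype by the authors, per the file headers. The authors' p-values, q-values and test scores come from Cuffdiff, per the file headers. The gene-level q-values differ by at most 5.18e-07 from a Benjamini-Hochberg adjustment of the p-values of the 12133 genes with a test. The deposited log2 ratios set Ctrl over DKO, so every ratio was recomputed as DKO over Ctrl from the FPKM values. Transcript length in bases is the authors' column.

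No test across animals was possible without values per animal, and depth is unknown, so no interval or detection floor was computed. Counting was tried on simulated data whose calls were set beforehand, which does not check the rows or lists used here. The 8 genes, the 5 pathway lists and the 6 marker lists were chosen with earlier results of these data known. Named genes were the 8 members, Sox5 and Sox6, all called genes of a pathway list and its 4 most abundant uncalled ones. The rule also covers single marker genes, given here by name, count and sum, with values for adipocyte genes only. Scd3, Srebf2, Idi1, Sqle, Hmgcs1, Cyp51, Lpin2, Agpat3 and Rai1 were named after their values were seen. File starts count from 0 and are printed counting from 1. RefSeq promoters were found for 6 of the 8 genes. Alternatives covered thresholds, pseudocounts, scaling and feature levels. Python 3.11.15, pandas 2.3.3, numpy 2.4.6, statsmodels 0.14.6 and matplotlib 3.10.9 were used.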

Additional observations from a re-analysis of the deposited data

How the results depend on the processing

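The 3 higher members of the gene table stayed 3 at a q under 0.01, with a fold of at least 1.3 and with an FPKM of at least 1 in both genotypes. They became 4, with Scd2, among isoforms, start site groups and coding sequences. Those levels repeat the same values and p-values for these genes, so they are not separate results. In 2 alternatives chosen after seeing the data, the higher members were 4 with the Scd2 transcript in place of its joined row and 3 without that row. The called isoforms of these genes numbered 2 at a q under 0.01. At that threshold, 0 genes were called higher among the fatty acid synthesis partners and the kinase subunits, and 0 were called lower among the partners, the SREBP regulators and the glycerolipid genes. By its construction, that threshold can only remove calls.

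Scaling the cardiomyocyte markers, whose median log2 ratio was -0.21, to 0 raised every ratio by that amount. Acacb then had a log2 ratio of 0.024, against -0.19, and Srebf1 one of -0.028. The uncalled Scd1 had 0.39, against 0.18, and Acaca 0.25, against 0.039. Ratios at this scaling were not tested. Coding sequences gave Acacb 1.56, since they hold only its minor 8485-base isoform. Scd2 had 0.37 from its transcript or coding sequence and Srebf1 -0.44, against 2.74 and -0.24 from their gene rows. No paired analysis was possible because the tables hold 1 pooled value per genotype, and for the same reason no animal could be left out. Depth is unknown, so what it limits cannot be given.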

Other observations

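Around the Scd genes on chromosome 19, within 500 kb on either side, 8 other genes were tested. None was called by Cuffdiff, with 2 at an unadjusted p under 0.05. Over all tested genes 7.36% were called in either direction, so the absence of a call among 8 genes is near the background. The log2 ratios of DKO over Ctrl of these 8 genes ran from -0.24 to 0.22, with a median of 0.050. The joined Scd2 row is 1 of 52 tested gene rows that hold both a transcript under 200 bases and a longer one. In 28 of these, the short transcripts made up most of the FPKM total in at least 1 genotype. Of 794 transcripts under 200 bases, 51 were above 0 in DKO and listed at 0 in Ctrl, and 35 were listed at 0 in DKO and above 0 in Ctrl.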
